A study of Arabidopsis thaliana with 4 samples.

Results

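The gibberellin oxidase genes are 10 loci of Arabidopsis thaliana taken by their locus identifiers from the 33558 genes of the deposited table: GA20ox1, GA20ox2 and GA20ox3, GA3ox1 and GA3ox2, and GA2ox1, GA2ox2, GA2ox4, GA2ox6 and GA2ox8. All 10 were found. RNA was sequenced from samples labelled as shoots of 7-day-old seedlings in 4 groups, with a table column for each. The groups were the double mutant hfr1-4pil1-2 (called hfr1 pil1 here) after 3 d of white light and 96 h of low R:FR, the same mutant after 7 d of white light, the accession Col-0 after 3 d of white light and 96 h of low R:FR, and Col-0 after 7 d of white light. HFR1 and PIL1 belong to the basic helix-loop-helix family and act in shade responses. Low R:FR is light with little red relative to far-red, as under a leaf canopy. The labels give it as red at 13 µE, blue at 1.23 µE and far-red at 20 µE, and white light as 30 to 50 µE at an R:FR of 1.2, so the amount of light and its R:FR changed together and cannot be told apart. All seedlings grew on agar without sucrose at 22 °C. Nothing in the labels says how many seedlings a sample pooled.

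Gibberellins are diterpenoid hormones that promote stem and hypocotyl elongation, germination and flowering. The last steps of their metabolism are run by soluble dioxygenases. The GA20ox enzymes oxidize the precursors in several steps, the GA3ox enzymes then make the bioactive hormones, and the GA2ox enzymes inactivate them or, in the case of GA2ox8, their precursors. In Arabidopsis, bioactive gibberellin is known to lower the transcripts of several GA20ox genes and of GA3ox1 and to raise those of several GA2ox genes. Hypocotyl elongation in shade is known to need gibberellin.

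Levels are normalized counts, which are reads per gene divided by 1 size factor per library. Both hfr1 pil1 columns held 1 library each. Each Col-0 column is the authors' mean, from which whole reads of 2 libraries were recovered, giving 6 libraries of 7358583 to 14684713 reads. A gene was tested if its mean over the 4 columns was at least 10.8 normalized counts. Of the 10 oxidase genes 7 passed, and GA20ox3, GA2ox1 and GA2ox4 did not. The 7 lay at or above that level in every column, except GA20ox1 in hfr1 pil1 white light (9.24). "Rose" and "fell" are used of genes with an adjusted p under 0.05 in edgeR's quasi-likelihood test with Benjamini-Hochberg adjustment over the 20011 genes tested. Values followed by ± are fitted log2 fold changes with an approximate standard error (SE), which at low reads can be smaller than the counting error. The fit takes the spread of each single hfr1 pil1 library from the Col-0 libraries. Nothing in the labels says that libraries came from separate plants, so p-values cover the spread among these libraries, possibly a technical one. Between the 2 Col-0 libraries of a light, the difference of log2(value + 10.8) had an SD of 0.18 in low R:FR and 0.21 in white light. These are over the 20011 genes tested. The added 10.8 makes such differences smaller at low levels, so these SDs understate the spread of genes with few reads.

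The mutated genes and marker genes were checked first. HFR1 stood at 2112 normalized counts in hfr1 pil1 and at 2046 and 2359 in Col-0 in low R:FR, and PIL1 stood at 1574 in hfr1 pil1 against 241 and 313 in Col-0. In white light HFR1 stood at 189 in hfr1 pil1 against 22.2 and 33.6 in Col-0, and PIL1 at 220 against 12.7 and 20.4. Neither transcript was lower in the libraries labelled hfr1 pil1, so transcript levels do not check the genotype label. All 6 shoot markers were above the filter in every column, summing to 145782 (hfr1 pil1 low R:FR), 267722 (hfr1 pil1 white light), 158587 (Col-0 low R:FR) and 280419 (Col-0 white light) normalized counts. The 2 of them that were tested, PSAD1 and GLK1, fell in both genotypes. All 8 root markers were above 0 in every column as well, summing to 36911 (hfr1 pil1 low R:FR), 26296 (hfr1 pil1 white light), 35527 (Col-0 low R:FR) and 31516 (Col-0 white light) normalized counts. PYK10, a gene of the root and hypocotyl endoplasmic reticulum bodies, made up most of each sum. Of the 7 root markers tested, 3 rose and none fell under low R:FR in hfr1 pil1 (CASP1, EXPA7 and COBL9), and 2 rose and 1 fell in Col-0. There CASP1, a gene of the root endodermis, and MYB36 rose (1.11 ± 0.12 and 0.70 ± 0.20 SE), and NRT2.1, a nitrate transporter gene, fell (-2.59 ± 0.40 SE). Of all tested genes 36.9% were called in hfr1 pil1 and 48.3% in Col-0, so these counts alone are not a result about the markers. DESeq2 called PSAD1 and GLK1 in both genotypes. Of the root markers it called EXPA7 and CASP1 in hfr1 pil1, and NRT2.1 and CASP1 in Col-0. Between genotypes in white light, EXPA7 was lower in hfr1 pil1 (-1.01 ± 0.24 SE), the 1 call among the 7 tested root markers, against 2.47% of all tested genes. The median log2 fold change of the 7 was -0.51 there, and 0.04 between genotypes in low R:FR, where none was called. Some marker levels thus differed with light, and EXPA7 with genotype in white light. Their part in the results below, genotype comparisons included, was not tested. CASP1 stood at 529 (hfr1 pil1 low R:FR), 163 (hfr1 pil1 white light), 518 (Col-0 low R:FR) and 241 (Col-0 white light) normalized counts. With root markers at such levels, the markers do not bear out a sample of shoots alone, and whether root tissue was present was not tested. In whole tissue, fewer cells of a type and less RNA per cell cannot be told apart.

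In both genotypes the transcripts of GA20ox1 and GA20ox2 rose under low R:FR, and those of GA3ox1 and GA3ox2 fell, by edgeR. In hfr1 pil1 this compares 1 library with 1 library, and there DESeq2 called 0 of the 6 oxidase genes to which it gave an adjusted p, against 3 of 7 in Col-0. Of all genes to which it gave an adjusted p, DESeq2 called 3316 of 19235 in hfr1 pil1 and 4774 of 20011 in Col-0. GA2ox6, the most abundant oxidase transcript per kb in low R:FR, rose in hfr1 pil1 and did not pass the test in Col-0. No oxidase gene passed the test between genotypes in either light, or for the difference between the genotypes' responses. In hfr1 pil1, 3 of the 7 tested genes rose and 2 fell, where 18.4% of all tested genes rose and 18.5% fell (36.9% in either direction). In Col-0, 2 rose and 2 fell, where 23% of all tested genes rose and 25.3% fell (48.3% in either direction). With backgrounds this high, the number of calls is not by itself a result about the oxidase genes. The median log2 fold change of the 7 was -0.04 in hfr1 pil1 and 0.28 in Col-0, where that of all tested genes was -0.0046 and -0.02.

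**Figure D1:**
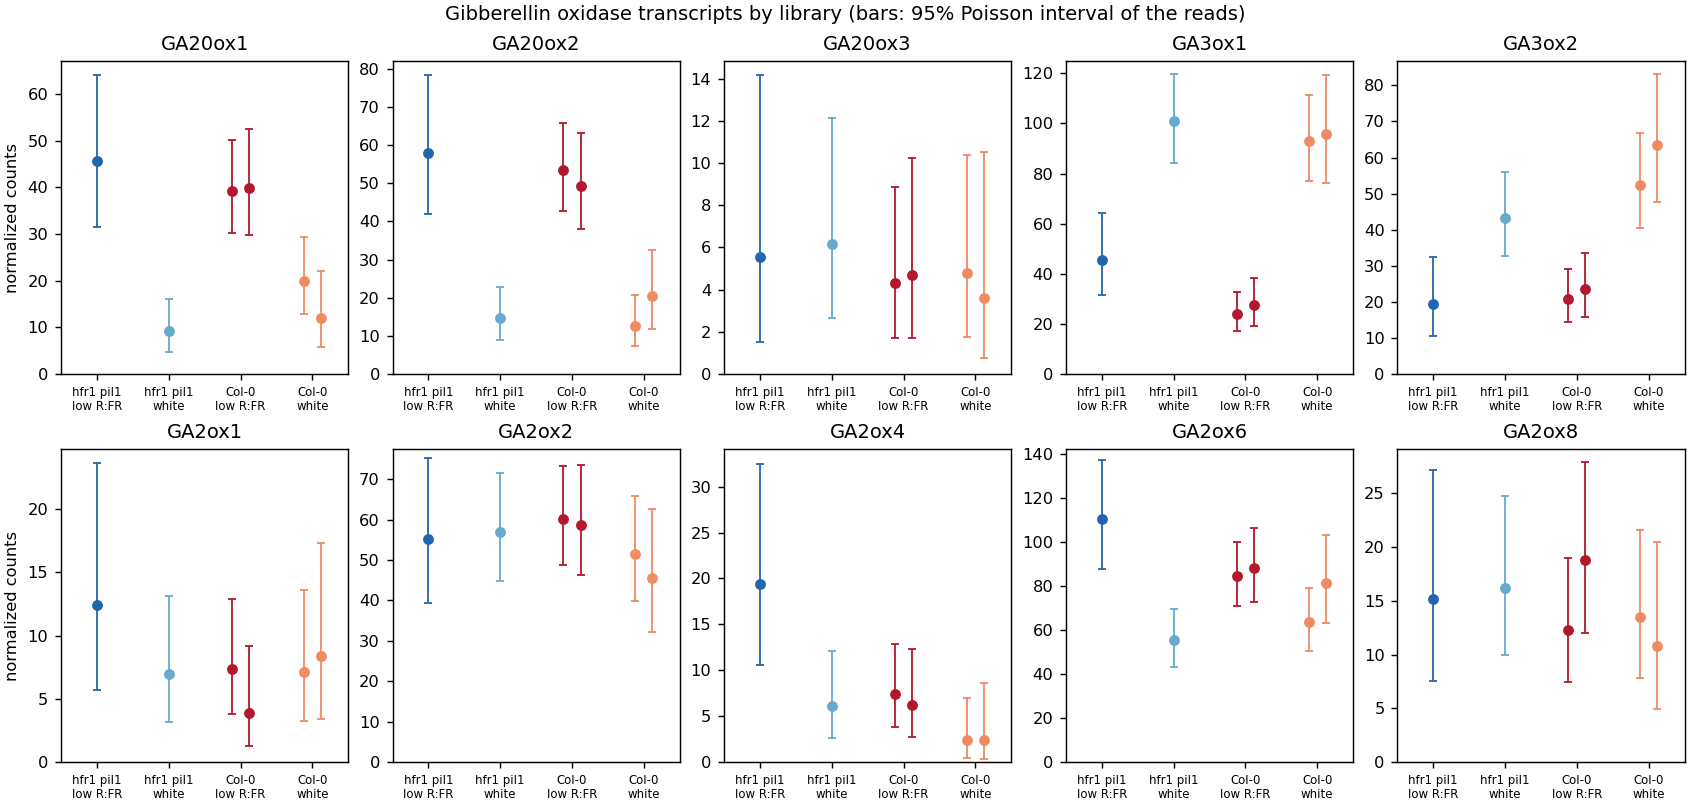
Normalized counts (y axis, from 0) of the 10 oxidase genes in each library, by group (x axis), with bars for the 95% Poisson interval of the reads. GA20ox1 and GA20ox2 lay higher and GA3ox1 and GA3ox2 lower in low R:FR than in white light in both genotypes, with no overlap of the library values. In Col-0 this lack of overlap held for 74.5% of all tested genes.

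GA20ox1 (AT4G25420; chr4:12990851-12992585, minus strand in TAIR10.1, 3 exons) encodes the oxidase altered in the semi-dwarf ga5 mutant. It stood at 45.6 normalized counts in hfr1 pil1 low R:FR, against 9.24 in hfr1 pil1 white light. In Col-0 it stood at 39.3 and 39.95 in low R:FR, against 19.9 and 11.99 in white light. Every low R:FR library lay above every white light library. In Col-0 alone the libraries of the 2 lights did not overlap for 74.5% of all tested genes. The share over all 6 libraries was not counted, here or for the genes below. The transcript rose in hfr1 pil1 by 2.29 ± 0.46 (SE) on the log2 scale (edgeR, Benjamini-Hochberg adjusted p = 0.00152) and in Col-0 by 1.24 ± 0.27 (SE; adjusted p = 0.00203 in the same edgeR fit). The mutant value compares 33 reads with 12, and its exact 95% binomial interval, which covers counting error only, ran from 1.31 to 3.39. The difference of the responses was 1.05 ± 0.55 (SE) and did not pass (edgeR, Benjamini-Hochberg adjusted p = 0.393). DESeq2 called GA20ox1 in neither genotype (Benjamini-Hochberg adjusted p = 0.0591 in hfr1 pil1 and 0.117 in Col-0).

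GA20ox2 (AT5G51810; chr5:21055179-21056881, minus strand, 3 exons) acts partly redundantly with GA20ox1 in elongation and flowering. It stood at 58.1 normalized counts in hfr1 pil1 low R:FR, against 14.6 in white light, from 42 and 19 reads. In Col-0 it stood at 53.4 and 49.4 in low R:FR, against 12.7 and 20.4 in white light. Low R:FR and white light libraries did not overlap here either. The transcript rose by 1.98 ± 0.39 (SE) in hfr1 pil1 (edgeR, Benjamini-Hochberg adjusted p = 0.00143; counting interval 1.17 to 2.85) and by 1.70 ± 0.26 (SE) in Col-0 (edgeR, Benjamini-Hochberg adjusted p = 0.000137). DESeq2 called it in Col-0 (Benjamini-Hochberg adjusted p = 0.0149) and not in hfr1 pil1 (0.0647). The difference of the responses was 0.28 ± 0.50 (SE; edgeR, Benjamini-Hochberg adjusted p = 0.850).

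GA20ox3 (AT5G07200; chr5:2243553-2245339, minus strand, 3 exons) had the lowest value per kb in every group but Col-0 white light, where that of GA2ox4 was lower, though its Poisson intervals overlapped those of the next gene in each group. It had 4 reads in hfr1 pil1 low R:FR (5.53 normalized counts), against 8 in white light (6.16). In Col-0 it had 7 and 6 reads in low R:FR (4.30 and 4.70), against 6 and 3 in white light (4.77 and 3.60). The groups overlapped in Col-0. With no filter on low values its fitted log2 fold change was -0.15 ± 1.06 (SE) in hfr1 pil1 and 0.06 ± 0.75 in Col-0, so that no change was detectable at this depth.

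The coding sequences of GA20ox1 and GA20ox2 were 77.6% identical by global alignment, the closest pair among the 10, and GA3ox1 and GA3ox2 were next at 74.3%. None of the 10 genes overlapped another annotated gene. The 300 bases before the annotated start are shown for GA20ox1 and GA20ox2, which rose together, and for GA3ox1, which fell, 5′ to 3′ on the gene's strand, from the RefSeq copy of TAIR10.1. Capitals mark matches to a pair of motifs that PIF transcription factors of the shade response are known to bind. The first is the G-box, CACGTG, which reads the same on both strands. Matches to the PBE-box were sought as CACATG on the gene's strand. Its form CATGTG, the same motif on the other strand, was counted too. No 2 matches in these windows overlapped. The windows lie at chr4:12992586-12992885, minus strand (GA20ox1), chr5:21056882-21057181, minus strand (GA20ox2) and chr1:5346343-5346642, minus strand (GA3ox1).
GA20ox1 promoter: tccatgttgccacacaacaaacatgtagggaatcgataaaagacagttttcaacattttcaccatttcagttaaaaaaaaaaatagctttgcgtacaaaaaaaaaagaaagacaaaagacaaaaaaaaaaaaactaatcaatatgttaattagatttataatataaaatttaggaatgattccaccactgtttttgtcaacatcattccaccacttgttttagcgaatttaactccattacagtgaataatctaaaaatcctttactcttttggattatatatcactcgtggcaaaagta
GA20ox2 promoter: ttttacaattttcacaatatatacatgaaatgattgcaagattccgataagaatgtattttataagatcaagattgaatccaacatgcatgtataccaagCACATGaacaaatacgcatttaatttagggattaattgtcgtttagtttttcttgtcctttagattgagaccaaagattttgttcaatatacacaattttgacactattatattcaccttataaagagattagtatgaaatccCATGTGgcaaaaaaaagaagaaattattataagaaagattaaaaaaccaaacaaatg
GA3ox1 promoter: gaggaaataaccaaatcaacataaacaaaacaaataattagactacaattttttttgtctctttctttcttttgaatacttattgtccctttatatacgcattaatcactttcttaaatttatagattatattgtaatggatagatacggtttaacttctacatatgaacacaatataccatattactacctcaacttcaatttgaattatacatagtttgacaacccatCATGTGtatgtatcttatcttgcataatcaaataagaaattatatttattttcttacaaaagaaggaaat
The GA20ox2 window held 2 PBE-box matches, beginning 200 and 57 bases before the gene start. The GA3ox1 window held 1, at 70 bases. The GA20ox1 window held neither motif. GA2ox4 had a G-box match 90 bases before its start. Over all 27443 protein-coding nuclear genes, 13.1% of windows of this length held a PBE-box match and 7.09% a G-box match, against 2 and 1 of the 10 oxidase genes. In 1000 bases 4 of the 10 held a PBE-box match and 1 a G-box match, where 37.7% and 14.8% of all such windows did. PBE-box matches thus stood before a gene that rose and a gene that fell, and GA20ox1, which rose with GA20ox2, held none in this window. A match is a description of the letters and not a binding site.

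GA3ox1 (AT1G15550; chr1:5344388-5346342, minus strand, 2 exons) encodes the main enzyme of the last activating step in vegetative shoots and is altered in the semi-dwarf ga4 mutant. It stood at 45.6 normalized counts in hfr1 pil1 low R:FR, against 100.9 in white light. In Col-0 it stood at 23.9 and 27.4 in low R:FR, against 92.9 and 95.9 in white light. The white light levels lay close together in all 3 libraries, and the mutant low R:FR library lay above both Col-0 low R:FR libraries. The transcript fell in hfr1 pil1 (-1.14 ± 0.26 SE; edgeR, Benjamini-Hochberg adjusted p = 0.00381; counting interval -1.74 to -0.59) and in Col-0 (-1.88 ± 0.18 SE; edgeR, Benjamini-Hochberg adjusted p = 2.3e-06). DESeq2 called the Col-0 change (Benjamini-Hochberg adjusted p = 3.33e-05) and not the mutant change (0.181). Between genotypes in low R:FR the log2 fold change was 0.84 ± 0.29 (SE), which passed at the unadjusted edgeR p of 0.0135 and not after Benjamini-Hochberg adjustment (0.199). The difference of the responses was 0.74 ± 0.34 (SE), with an unadjusted edgeR p of 0.0482 and a Benjamini-Hochberg adjusted p of 0.303.

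GA3ox2 (AT1G80340; chr1:30200466-30202349, minus strand, 2 exons) acts beside GA3ox1 in germinating seeds and young seedlings. It stood at 19.4 normalized counts in hfr1 pil1 low R:FR, against 43.1 in white light, from 14 and 56 reads. In Col-0 it stood at 20.9 and 23.5 in low R:FR, against 52.4 and 63.5 in white light. All low R:FR libraries lay below all white light libraries. The transcript fell in hfr1 pil1 (-1.15 ± 0.40 SE; edgeR, Benjamini-Hochberg adjusted p = 0.0365; counting interval -2.12 to -0.29) and in Col-0 (-1.37 ± 0.22 SE; edgeR, Benjamini-Hochberg adjusted p = 0.000215). By DESeq2 the Col-0 change passed (Benjamini-Hochberg adjusted p = 0.0305) and the mutant change did not (0.394). The difference of the responses was 0.22 ± 0.48 (SE; edgeR, Benjamini-Hochberg adjusted p = 0.892).

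**Figure D2:**
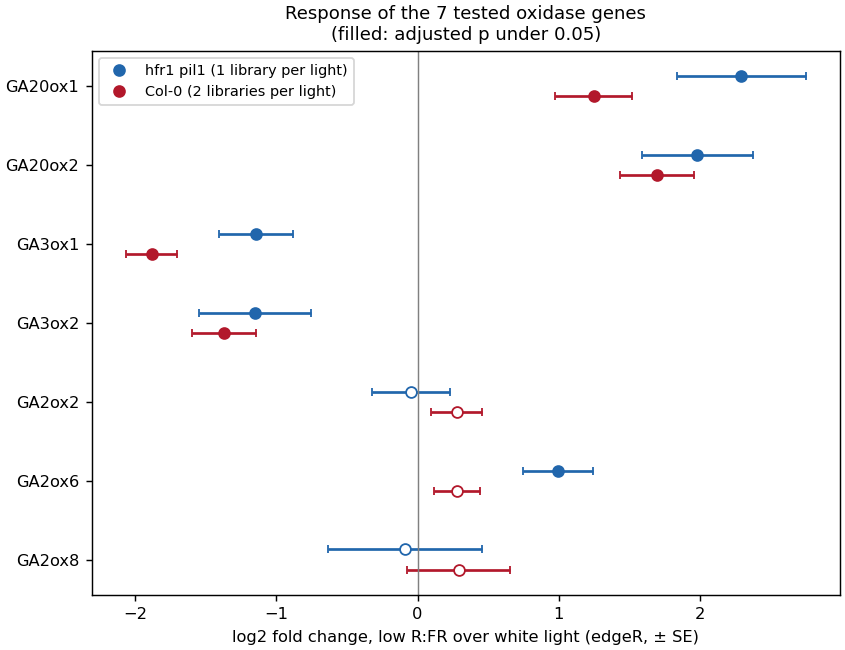
Fitted log2 fold changes of low R:FR over white light (x axis, edgeR, bars ± SE) for the 7 tested oxidase genes (y axis) in hfr1 pil1 and Col-0, filled where the adjusted p was under 0.05. GA20ox1 and GA20ox2 lay above 0 and GA3ox1 and GA3ox2 below 0 in both genotypes, and GA2ox6 passed in hfr1 pil1 alone, where the difference between genotypes did not pass the test.

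The GA2ox genes inactivate gibberellin. GA2ox6 (AT1G02400; chr1:486800-489651, plus strand, 3 exons) stood at 111 normalized counts in hfr1 pil1 low R:FR, against 55.5 in white light. In Col-0 it stood at 84.7 and 88.5 in low R:FR, against 63.5 and 81.5 in white light. The mutant low R:FR library was the highest of the 6 and the mutant white light library the lowest. The transcript rose in hfr1 pil1 by 0.99 ± 0.25 (SE; edgeR, Benjamini-Hochberg adjusted p = 0.00702; counting interval 0.52 to 1.48), and DESeq2 did not call it (Benjamini-Hochberg adjusted p = 0.199). In Col-0 its log2 fold change was 0.28 ± 0.16 (SE; edgeR, Benjamini-Hochberg adjusted p = 0.175). The difference of the responses, 0.71 ± 0.30 (SE), had an unadjusted edgeR p of 0.0332 and a Benjamini-Hochberg adjusted p of 0.250, so the responses of the genotypes were not shown to differ.

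GA2ox2 (AT1G30040; chr1:10537457-10540044, plus strand, 3 exons) stood at 55.3 normalized counts in hfr1 pil1 low R:FR, against 57.0 in white light, and in Col-0 at 60.2 and 58.8 in low R:FR, against 51.6 and 45.5 in white light. Its log2 fold change was -0.04 ± 0.28 (SE) in hfr1 pil1 and 0.28 ± 0.18 in Col-0, and neither passed (edgeR, Benjamini-Hochberg adjusted p = 0.920 and 0.224). The Col-0 libraries of the 2 lights did not overlap for GA2ox2, nor for GA2ox6 and the 4 genes called in Col-0, as was so for 74.5% of all tested genes. GA2ox8 (AT4G21200; chr4:11302682-11306770, plus strand, 3 exons), which acts on precursors, stood at 15.2 normalized counts in hfr1 pil1 low R:FR, against 16.2 in white light, and in Col-0 at 12.3 and 18.8 in low R:FR, against 13.5 and 10.8 in white light. The libraries of the 2 lights overlapped, and the log2 fold change was -0.09 ± 0.54 (SE) in hfr1 pil1 and 0.29 ± 0.36 in Col-0 (edgeR, Benjamini-Hochberg adjusted p = 0.917 and 0.541).

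GA2ox4 (AT1G47990; chr1:17698598-17701041, plus strand, 3 exons) had few reads but the highest low R:FR to white light ratio of the 5 GA2ox genes. It had 14 reads in hfr1 pil1 low R:FR (19.4 normalized counts), against 8 in white light (6.16). In Col-0 it had 12 and 8 reads in low R:FR (7.37 and 6.27), against 3 and 2 in white light (2.38 and 2.40). Each low R:FR library lay above each white light library, though by little where the Col-0 low R:FR libraries are set against the mutant white light library. With no filter on low values the log2 fold change was 1.63 ± 0.74 (SE) in hfr1 pil1 and 1.49 ± 0.75 in Col-0, and neither passed (edgeR, Benjamini-Hochberg adjusted p = 0.0773 and 0.105). In low R:FR it was 1.48 ± 0.62 (SE) between hfr1 pil1 and Col-0 (edgeR, Benjamini-Hochberg adjusted p = 0.211). GA2ox1 (AT1G78440; chr1:29511561-29513100, minus strand, 3 exons) had 9 reads in each mutant library, which is 12.4 normalized counts in low R:FR against 6.93 in white light. In Col-0 it had 12 and 5 reads in low R:FR (7.37 and 3.92), against 9 and 7 in white light (7.15 and 8.39). The Col-0 groups overlapped, and no change was detectable at this depth (with no filter 0.83 ± 0.80 SE in hfr1 pil1 and -0.38 ± 0.58 in Col-0). In that fit edgeR called none of GA20ox3, GA2ox1 and GA2ox4 in any of the 5 comparisons after Benjamini-Hochberg adjustment, where it called 31.9% of genes in hfr1 pil1, 41.1% in Col-0, 4.51% between genotypes in low R:FR, 4.88% between them in white light and 6.18% for the difference of the responses.

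Levels of different genes were compared per kb of transcript (the transcript with the longest coding sequence). In hfr1 pil1 low R:FR, GA2ox6 led with 78.2 normalized counts per kb, followed by GA20ox2 (39.2), GA20ox1 (31.7), GA2ox2 (30.5) and GA3ox1 (30.0), whose 95% Poisson intervals overlapped. In hfr1 pil1 white light, GA3ox1 led with 66.3, followed by GA2ox6 (39.2), GA2ox2 (31.5) and GA3ox2 (29.6), of which each overlapped the next. In Col-0 low R:FR the order was GA2ox6 (61.3), GA20ox2 (34.7), GA2ox2 (32.8), GA20ox1 (27.5), GA3ox1 (16.9) and GA3ox2 (15.2). GA2ox6 lay above the rest beyond the Poisson intervals of both libraries, while those of GA20ox2, GA2ox2 and GA20ox1 overlapped, as did those of the GA3ox genes. In Col-0 white light GA3ox1 (62.0) came before GA2ox6 (51.3), GA3ox2 (39.7) and GA2ox2 (26.8), and then GA20ox2 (11.2) and GA20ox1 (11.05). The Poisson intervals of single libraries overlapped there between each of these genes and the next, except between GA2ox2 and GA20ox2 in library 1. GA3ox1 thus had the highest value in white light in both genotypes, apart from GA2ox6 by the Poisson intervals in hfr1 pil1 and not in Col-0, and GA2ox6 had the highest in low R:FR in both.

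Summed per class, the GA20ox genes stood at 74.3 normalized counts per kb in hfr1 pil1 low R:FR, against 20.1 in white light, and in Col-0 at 66.0 and 63.9 in low R:FR, against 25.3 and 24.3 in white light. The GA3ox genes stood at 43.2 in hfr1 pil1 low R:FR, against 95.8 in white light, and in Col-0 at 30.0 and 34.1, against 97.0 and 107. The GA2ox genes stood at 146 in hfr1 pil1 low R:FR, against 93.9 in white light, and in Col-0 at 115 and 118, against 91.6 and 99.7. The GA3ox sum exceeded the GA20ox sum in all 3 white light libraries and lay below it in all 3 low R:FR libraries. Within the GA3ox sum, GA3ox1 made up 69.3% in hfr1 pil1 low R:FR and 69.2% in white light, and in Col-0 52.4% and 52.8% in low R:FR, against 63.0% and 59.1% in white light.

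**Figure D3:**
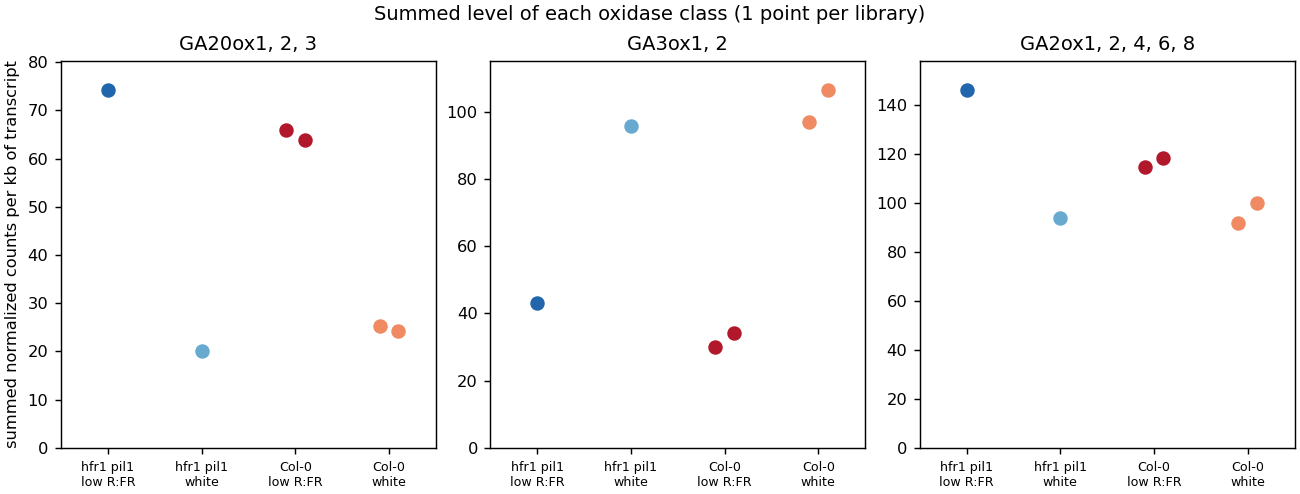
Summed normalized counts per kb of transcript (y axis, from 0) of the GA20ox, GA3ox and GA2ox genes, with 1 point per library by group (x axis). The GA20ox sum lay between 63.9 and 74.3 in low R:FR and between 20.1 and 25.3 in white light, and the GA3ox sum between 30.0 and 43.2 and between 95.8 and 107.

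Between genotypes no oxidase gene was called. In low R:FR, hfr1 pil1 against Col-0 gave 0 of 7 calls by edgeR after Benjamini-Hochberg adjustment, against 2.37% of all tested genes, and 1 of 7 (GA3ox1) at an unadjusted p under 0.05. In white light it gave 0 of 7, against 2.47% of all tested genes, and also 0 at an unadjusted p under 0.05. There the largest value was that of GA20ox1, at -0.84 ± 0.46 (SE; edgeR, Benjamini-Hochberg adjusted p = 0.446), from 12 reads in hfr1 pil1 and 35 in Col-0. Without Col-0 white light library 1 it was -0.37. The values of GA2ox8 (0.58), GA3ox2 (-0.56), GA2ox6 (-0.55) and GA20ox2 (-0.47) were then larger in size. For the difference of the responses it was 0 of 7, against 3.81% of all tested genes, and 2 of 7 (GA3ox1 and GA2ox6) at an unadjusted p under 0.05. DESeq2 had 0 of 7 at an unadjusted p under 0.05 in all 3 comparisons. The shares of all tested genes given here are for adjusted p. Shares at an unadjusted p under 0.05 were not counted, so the unadjusted counts have no background to be read against. These counts do not show that the genotypes were alike, since the counting intervals were wide. For GA20ox1 in low R:FR the interval of the log2 ratio of reads between genotypes ran from -0.40 to 0.77, and for GA3ox2 from -1.14 to 0.66. The 2 comparisons of genotypes and the 2 responses share libraries.

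The other genes of the pathway came from a list of 25, of which 15 were tested. The early steps make the precursors from a diterpene and need a synthase pair (GA1 and GA2), a kaurene oxidase (GA3) and kaurenoic acid oxidases (KAO1 and KAO2). None of the 4 tested early genes passed in either genotype, where 36.9% (hfr1 pil1) and 48.3% (Col-0) of all tested genes did. With 4 genes, this does not show that the early steps did not respond. KAO2 (AT2G32440), an example picked for its level after the values were seen, stood at 322 normalized counts in hfr1 pil1 low R:FR against 334 in white light, and in the authors' Col-0 means at 343 against 318. The 6 oxidase genes outside the members (GA20ox4, GA20ox5, GA3ox3, GA3ox4, GA2ox3 and GA2ox7) stood at 0 to 2.76 normalized counts in every column, so none was tested. Among other inactivating enzymes, the methyltransferase gene GAMT1 was at 0 in all 4 columns. ELA1 (AT5G24910), a cytochrome P450 gene and the 1 tested gene of this list of 4, did not pass in either genotype (0.74 ± 0.46 SE in hfr1 pil1 and 0.62 ± 0.27 in Col-0).

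Of 10 receptor and signalling genes, 5 rose and 1 fell in hfr1 pil1, and 6 rose and 2 fell in Col-0, where 36.9% and 48.3% of all tested genes were called in either direction, so these counts alone are not a result about the list. By DESeq2 these numbers were 2 and 0 in hfr1 pil1 (GAI and RGA) and 2 and 1 in Col-0 (GAI, RGA and RGL2). In all it called 3316 of 19235 genes with an adjusted p in hfr1 pil1 and 4774 of 20011 in Col-0. The DELLA genes, whose proteins restrain growth until gibberellin triggers their breakdown, went in both directions. GAI (AT1G14920) rose by 0.88 ± 0.12 (SE) in hfr1 pil1 and 0.97 ± 0.080 in Col-0, and RGA (AT2G01570) by 0.79 ± 0.098 and 0.71 ± 0.067. RGL2 (AT3G03450), a DELLA gene known for its part in germination, fell in both (-1.26 ± 0.25 SE in hfr1 pil1 and -1.13 ± 0.15 in Col-0). RGL3 (AT5G17490) rose by 1.30 ± 0.32 (SE) in hfr1 pil1 and 0.82 ± 0.20 in Col-0. Of the receptor genes, GID1A (AT3G05120) rose in both genotypes, at 0.43 ± 0.14 (SE) in hfr1 pil1 and 0.28 ± 0.097 in Col-0. GID1C (AT5G27320), another receptor gene, rose in hfr1 pil1 (0.54 ± 0.17 SE) and was at 0.085 ± 0.11 in Col-0, which did not pass. RGL1 (AT1G66350), a DELLA gene, and SLY1 (AT4G24210), whose F-box protein takes part in DELLA breakdown, rose in Col-0 (0.38 ± 0.12 and 0.34 ± 0.10 SE) and were at 0.50 ± 0.18 and 0.30 ± 0.16 in hfr1 pil1, which did not pass. GID1B (AT3G63010) was at 0.25 ± 0.19 (SE) in hfr1 pil1, which did not pass, and fell in Col-0 (-0.56 ± 0.12 SE), and the difference of the responses did not pass (edgeR, Benjamini-Hochberg adjusted p = 0.0697). Adjusted p of the called values in this paragraph lay between 5.58e-07 for GAI in Col-0 and 0.0271 for GID1A in Col-0 (edgeR, Benjamini-Hochberg).

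**Figure D4:**
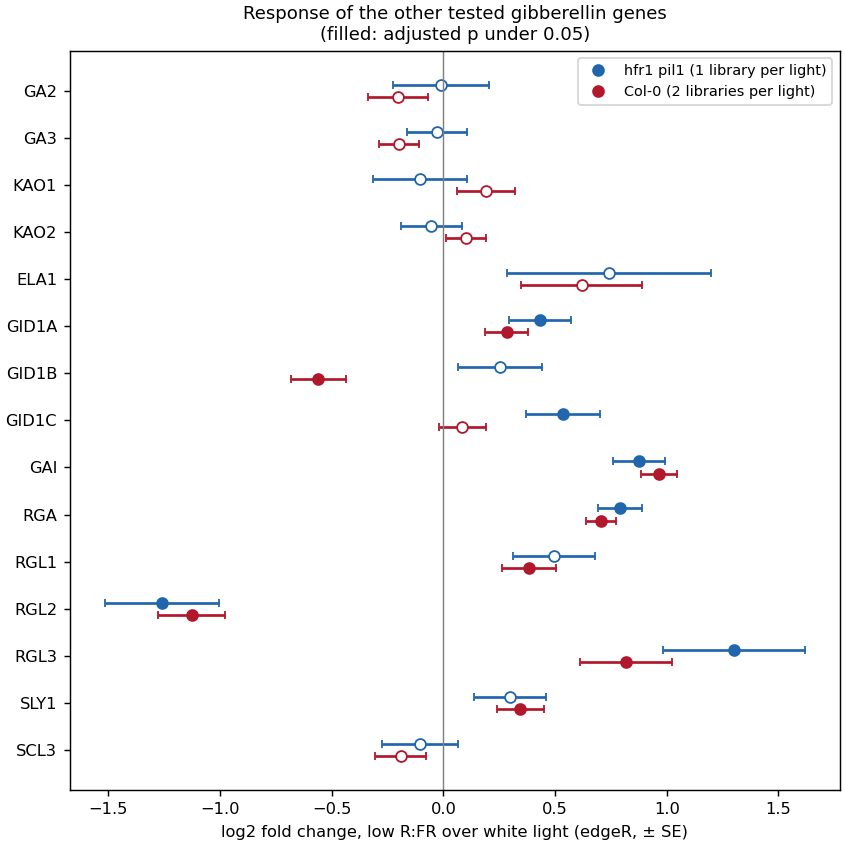
Fitted log2 fold changes of low R:FR over white light (x axis, edgeR, bars ± SE) for the 15 tested gibberellin genes outside the oxidase set (y axis) in hfr1 pil1 and Col-0, filled where the adjusted p was under 0.05. The 4 early synthesis genes lie between -0.20 and 0.19, and GAI, RGA and RGL3 lie at 0.71 or higher in both genotypes.

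Genes whose pattern was most like that of the most abundant member of each class were sought by Euclidean distance of centred log2 levels over the 6 libraries. For GA20ox2, among 7444 such genes, the nearest were GDU3, TPPH and ANNAT3 (distances 0.17, 0.20 and 0.25). For GA3ox1 they were UGT84A2, MYB12 and cPT4 (0.20, 0.25 and 0.29), and for GA2ox6 they were TUB1, GATA12 and ABI1 (0.068, 0.10 and 0.11). With 6 libraries in 4 groups, many genes share a pattern, so this is a description of these libraries.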

How the data were processed

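The authors' deposited columns hold a normalized signal per gene, that is read counts over a size factor for the library. The submitters' processing notes name Bowtie and TAIR10, while versions, the counter and the source of the factors are not given. Column headers mark the Col-0 columns as means, per the file headers. Whole reads were recovered from the deposited signal. All values of both mutant columns were whole multiples of 1 step within 0.01 reads, and 99.7% (low R:FR) and 99.8% (white light) of the Col-0 values were solved as sums of multiples of 2 steps. No gene under 9772 normalized counts failed. Of 20111 genes past the filter (a mean of at least 10.8 normalized counts, set from the mean column total), 100 could not be split, leaving 20011.

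These reads were fitted in edgeR 4.0.16 (R 4.3.3) over 6 libraries in 4 groups with the authors' factors and 2 residual degrees of freedom (biological coefficient of variation 0.0525). The 9 alternatives were TMM and DESeq2 size factors, the DESeq2 1.42.0 Wald test, no filter, a filter 5 times as high, and each Col-0 library left out. Data of 20011 genes were simulated with 1 coefficient of variation (0.0525) for all genes and libraries. There 80 of 100 changes of 2-fold were recovered for the hfr1 pil1 response and 96 of 100 for that of Col-0. False calls were 8 of 188 calls and 5 of 201. With 1 spread set for all, this cannot test whether single hfr1 pil1 libraries vary like those of Col-0. Recovery at the read numbers of the oxidase genes was not tested separately. Gene models and promoters came from RefSeq's TAIR10.1, whose nuclear chromosomes are those of TAIR10. The GA3ox2 promoter is not reported here. Biopython 1.88 aligned coding sequences. Of 51 names looked up, 50 matched the reference, and PSAD1 is PSAD-1 there. All 10 oxidase genes are named, other pathway genes where they passed a test (exceptions are marked), and the 3 genes nearest by pattern. Members, lists and tests were chosen with earlier results of these data known.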

Additional observations from a re-analysis of the deposited data

How the results depend on the processing

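The 9 calls of oxidase genes (4 in Col-0 and 5 in hfr1 pil1) kept direction under every alternative in which the gene was tested. Calls were lost under the DESeq2 Wald test only: GA20ox1 in Col-0, and all 5 in hfr1 pil1, so that it called 3 oxidase genes in Col-0 and 0 of 6 with an adjusted p in hfr1 pil1. Of all genes to which it gave an adjusted p, DESeq2 called 4774 of 20011 in Col-0 and 3316 of 19235 in hfr1 pil1. Between genotypes it called 147 of 8372 in low R:FR and 108 of 17683 in white light, and 198 of 6432 for the difference of responses. By edgeR these were 9657, 7385, 475, 495 and 762, each of 20011. DESeq2 gave no oxidase gene an adjusted p between genotypes in low R:FR or for the difference of responses. The cause of the lower DESeq2 counts was not tested. With the filter 5 times as high, 3 oxidase genes were tested, of which 1 (GA3ox1) was called in Col-0 and 2 in hfr1 pil1, as fewer genes entered. Under that filter 8498 of all 16082 genes tested were called in Col-0 and 6647 in hfr1 pil1. With no filter, 1147, 1241 and 1572 genes were called in low R:FR, in white light and for the difference, and the cause was not tested. That fit pooled the spread over genes in full (prior degrees of freedom infinite, against 10.7 in the main fit). Its SE and p-values, used above for GA20ox3, GA2ox1 and GA2ox4, thus take no account of a gene's own spread. Leaving out 1 Col-0 library at a time gave 336 to 784 calls between genotypes in low R:FR, 433 to 842 in white light and 520 to 1178 for the difference of responses, while the count of oxidase genes called stayed at 4, 5, 0, 0 and 0. In low R:FR the lowest count was without Col-0 low R:FR library 2 and the highest without Col-0 white light library 2 (778 without library 1). In white light they were without Col-0 white light library 2 and library 1, and for the difference without Col-0 low R:FR library 2 and Col-0 white light library 1.

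Of the fitted values not called, 4 changed sign under some alternative. Leaving out 1 Col-0 library at a time, GA2ox8 ranged from -0.013 (without low R:FR library 2) to 0.60 in Col-0, and from -0.30 (without low R:FR library 1) to 0.31 between genotypes in low R:FR, where DESeq2's size factors gave -0.00098. GA20ox2 ranged from -0.47 to 0.20 (without white light library 2) between genotypes in white light, and from -0.031 (without the same library) to 0.65 for the difference of responses. Rescaling the columns to 1 total raised the log2 ratio of the median gene by 0.13 in Col-0 and 0.15 in hfr1 pil1. On the log2(value + 10.8) scale of the deposited columns it turned the sign of GA2ox2 (0.092, against -0.037 as deposited) and GA2ox8 (0.038, against -0.053) in hfr1 pil1. It also turned that of GA2ox8 between genotypes in low R:FR (0.0032, against -0.018). TMM and DESeq2 size factors moved the median gene by less. No paired analysis was possible because the labels give no replicate numbers that groups share. Depth limits GA20ox3, GA2ox1 and GA2ox4, with 2 to 14 reads per library.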
